A study of Mus musculus with 12 samples.

Results

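The genes described here are 40 protein-coding genes of glycolysis, the pentose phosphate pathway and the tricarboxylic acid (TCA) cycle, chosen by their symbols as enzymes and glucose transporters of these pathways. All 40 were found among the 12809 genes of the table and all 40 were tested. Lymph nodes (LN) of B6 and FlipFlop mice were each sorted into CD4 and CD8 T cells, which gives 4 groups, and 3 RNA libraries were sequenced per group. The B6 groups came from female C57BL/6 mice aged 10 weeks, with unaltered coreceptor loci. The FlipFlop groups came from female mice aged 14 weeks, bred from 8in4 and 4in8 mice so that both copies of chromosome 6 carry both altered loci. In FlipFlop mice the *Cd4* loci encode CD8αβ.1 proteins and the *Cd8a* loci encode CD4 proteins. The 8in4 locus was made in B6 embryonic stem cells, whereas the 4in8 locus came from cells of strain 129, some of whose genes remain in the FlipFlop mice. These ages are those of the labels, and the study's methods give another range for all mice. As labelled, strain cannot be told apart from age or from linked strain 129 alleles. Nothing says whether replicates came from separate mice, so p-values measure the spread between these libraries, which may be technical.

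Glycolysis splits glucose into pyruvate in the cytosol, which lactate dehydrogenase interconverts with lactate or which enters mitochondria through the pyruvate dehydrogenase complex to feed the TCA cycle. The pentose phosphate pathway branches off after hexokinase and yields NADPH and ribose phosphate for nucleotides. Resting T cells rely mostly on mitochondrial oxidation of pyruvate and fatty acids, and activated T cells raise glucose uptake, glycolysis and lactate release. Several steps have alternative enzymes, or isozymes, encoded by different genes, such as *Ldha* and *Ldhb* for lactate dehydrogenase or *Hk1* and *Hk2* for hexokinase. The study compared these groups to ask whether coreceptor loci or coreceptor proteins set T cell fate. In the study's terms B6 CD4 and FlipFlop CD8 T cells are of the helper lineage, and B6 CD8 and FlipFlop CD4 T cells are of the cytotoxic lineage.

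Values are CPM, read counts scaled to library size, further scaled by TMM, a factor that corrects for composition. Libraries held 26600000 to 33100000 reads on listed genes, and the columns summed to 875501 to 1081793, lowest in the 3 FlipFlop CD8 libraries (875501 to 940971). All 8 T cell markers were listed, with summed levels of 4020 to 5605 CPM over the 12 libraries. Markers of other cells were lower in sum, at 86.9 to 245 CPM for 8 B cell genes, 7.06 to 30.8 CPM for 6 myeloid genes and 6.67 to 28.8 CPM for 4 red blood cell genes. For 5 NK cell genes, some of which cytotoxic T cells also express, the sums were 12.9 to 26.3 CPM in B6 CD4, 23.8 to 83.5 in FlipFlop CD8, 474 to 516 in B6 CD8 and 297 to 301 in FlipFlop CD4 T cells, and *Cd14*, *Adgre1*, *Ncr1* and *Alas2* were not listed. Summed levels of 8 regulatory T (T reg) cell genes were 690 to 829 CPM in B6 CD4, 1424 to 1591 in FlipFlop CD8, 118 to 121 in B6 CD8 and 159 to 217 in FlipFlop CD4 T cells. Summed levels of 10 genes of dividing cells were 414 to 426 CPM in B6 CD4, 424 to 542 in FlipFlop CD8, 394 to 408 in B6 CD8 and 328 to 406 in FlipFlop CD4 T cells. Sums of 11 memory or effector T cell genes were 649 to 801 CPM in B6 CD4, 1322 to 1829 in FlipFlop CD8, 1500 to 1729 in B6 CD8 and 858 to 989 in FlipFlop CD4 T cells, and those of 8 naive T cell genes were lowest in FlipFlop CD8 (4162 to 4391 CPM) against 5303 to 6025 CPM in the other groups. In these bulk samples, fewer cells of a type and less RNA per cell cannot be told apart. Libraries also differed within groups. B6 CD4 replicate 1 was the highest of the 12 libraries for 20 of the 40 genes, and FlipFlop CD8 replicate 3 was the lowest for 18.

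Together the 40 genes made up 0.6945% to 0.836% of the values in a library. Relative to exon length, the most abundant were *Gapdh* (226 CPM per kb, mean of 12 libraries), *Ldha* (193), *Aldoa* (170), *Eno1* (157) and *Pkm* (144). The least abundant were *Hk2* (0.571 CPM per kb) and *Aldoc* (0.716). In CPM, 39 of the 40 exceeded 1 CPM in every library, and *Aldoc* was under 1 CPM in 4 libraries. Its lowest value still rested on 16 reads and that of *Hk2* on 30 reads. Reads could have been shared with near-identical copies, because the values of *Gpi1*, *Gapdh*, *Pgk1*, *Pgam1* and *Pkm* came out as whole reads in 0 of 12 libraries, those of *Eno1* and *Suclg2* in 1, *Pdhb* in 3, *Ldha* in 4, *Ldhb* in 5 and *Tpi1* in 10, whereas 29 of the 40 genes came out whole in all 12. The levels of these genes are therefore uncertain to an extent that the table does not give.

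**Figure D1:**
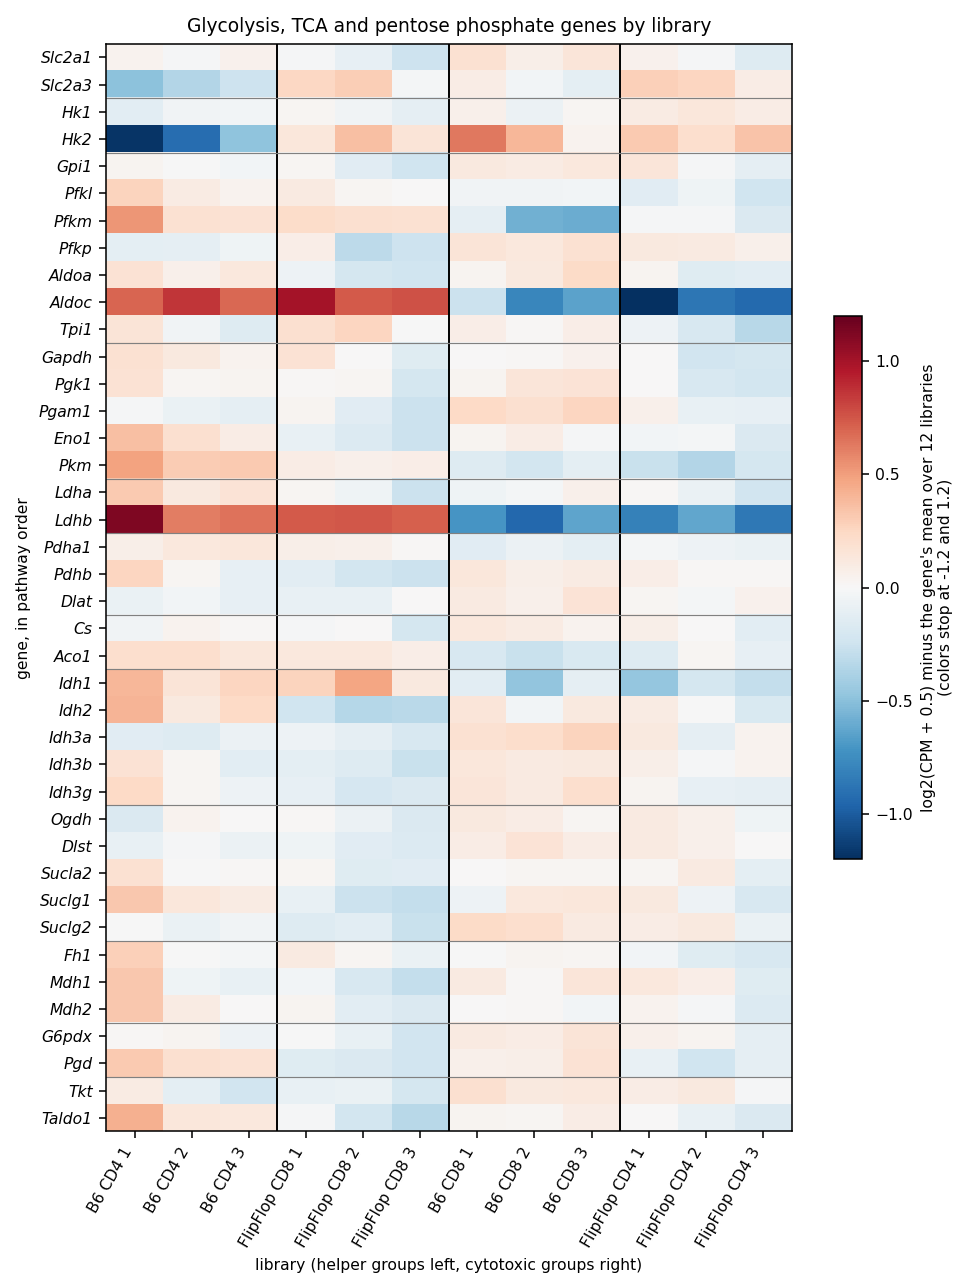
Level of each of the 40 genes (rows, in pathway order) in each of the 12 libraries (columns), as log2(CPM + 0.5) minus the gene's mean over all libraries. *Ldhb* and *Aldoc* are high in all 6 helper libraries and low in all 6 cytotoxic libraries, *Hk2* is low in the 3 B6 CD4 libraries, and most other rows stay pale.

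The first question was how B6 CD4 and CD8 T cells differ in these genes, and whether the difference turns over in FlipFlop mice. *Ldhb*, *Aldoc*, *Idh1* and *Pkm* were higher in CD4 than in CD8 T cells of B6 mice and higher in CD8 than in CD4 T cells of FlipFlop mice, so that they followed the lineage and not the surface coreceptor. *Hk2* was lower in B6 CD4 T cells than in the other 3 groups. Between B6 CD4 and CD8 T cells 13 of 40 genes were called by limma at an adjusted p under 0.05, 7 higher and 6 lower in CD4 T cells, against 25.4% of all tested genes. Between FlipFlop CD4 and CD8 T cells 11 genes were called, 5 higher and 6 lower in CD4 T cells, against 31.3% of all tested genes. The lineage effect, the mean of both helper groups minus the mean of both cytotoxic groups, was called for 18 genes, 8 higher and 10 lower in helper cells, against 39.3% of all tested genes (19.9% higher and 19.4% lower). These shares were near those of all tested genes. Helper and cytotoxic libraries did not overlap for 9 of the 40 genes, 8 higher and 1 lower in helper cells. Over all tested genes this held for 16.9% (1148 genes higher and 812 lower). With folds taken on the log2(CPM + 0.5) scale, 0 of the 40 genes passed the rule of the study's methods, a change of more than 5-fold at an unadjusted p under 0.05, in any limma comparison. The added 0.5 CPM decides this for *Aldoc*, whose mean CPM without it (3.86 in FlipFlop CD8 and 0.713 in FlipFlop CD4 T cells) differed by more than 5-fold.

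The split of higher and lower genes depended on the scaling. With each library rescaled to the same total, without the TMM factor, the lineage effect was called higher for 17 genes and lower for 1, the B6 difference higher for 14 and lower for 3, and the FlipFlop difference higher for 0 and lower for 12. Over all genes tested in that scaling, the lineage effect was called higher for 31.0% and lower for 10.0%, the B6 difference for 18.1% and 7.86% and the FlipFlop difference for 6.76% and 25.7%, so that the split of all genes moved the same way. This rescaling also moved the median of all tested genes, from -0.025 to 0.093 on the log2 scale for the lineage effect and from 0.036 to -0.135 for the FlipFlop difference. The 8 genes called higher in helper cells and *Hk2* kept their calls under it, whereas the other 9 called lower lost them. The FlipFlop count also rested on single libraries. It was 6 without B6 CD8 replicate 3, 5, 6 and 7 without FlipFlop CD4 replicates 1, 2 and 3, and 6, 5 and 5 without FlipFlop CD8 replicates 1, 2 and 3.

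**Figure D2:**
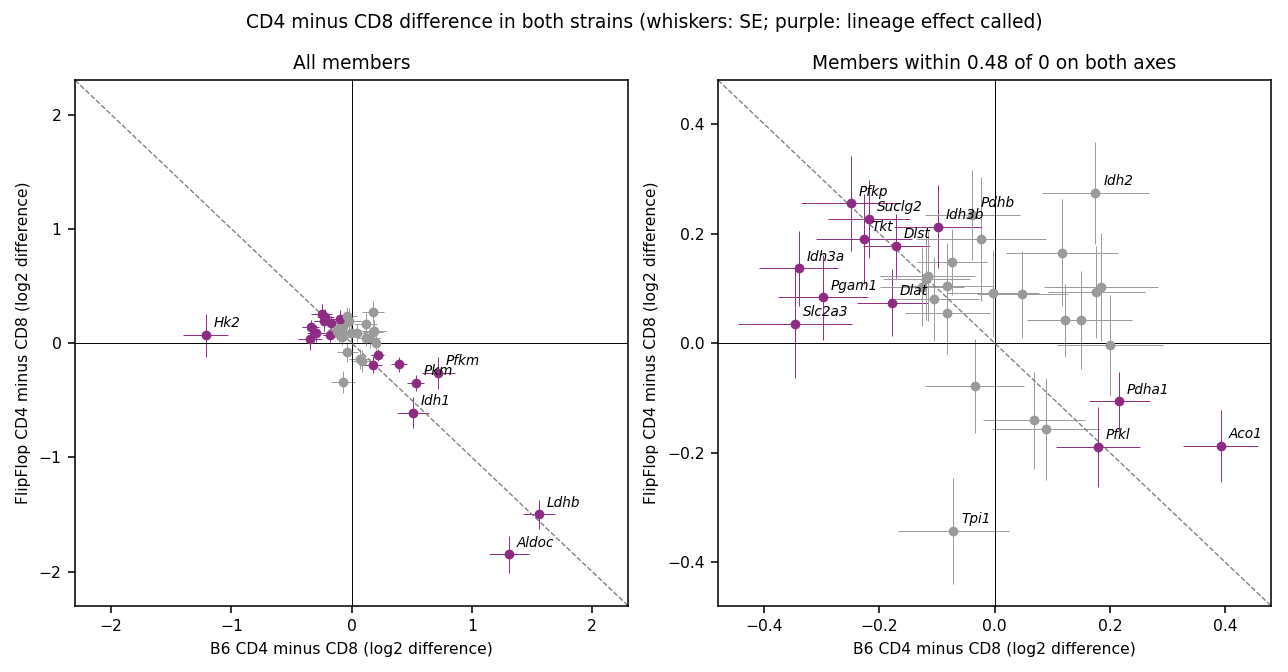
CD4 minus CD8 difference of each gene in B6 (horizontal axis) and in FlipFlop T cells (vertical axis), both as log2 differences with whiskers of 1 standard error. The dashed line marks equal differences of opposite sign, and purple points are the 18 genes with a called lineage effect. *Ldhb* and *Aldoc* lie near the line at the lower right, *Hk2* lies at -1.21 on the horizontal axis and near 0 on the vertical axis, and the right panel enlarges the center.

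In lactate dehydrogenase the 2 isozyme genes differed in the size of this pattern. *Ldhb* encodes the heart-type subunit, and *Ldha* the muscle-type subunit. *Ldhb* (ENSMUSG00000030246.11) lies on chromosome 6 from 142490249 to 142507957 in GRCm38, on the minus strand. Its levels were 54.7, 38.2 and 39.2 CPM in B6 CD4, 41.8, 42.0 and 41.2 in FlipFlop CD8, 14.98, 12.7 and 15.8 in B6 CD8 and 13.9, 15.9 and 13.5 in FlipFlop CD4 T cells. All 6 helper libraries were above all 6 cytotoxic libraries. The CD4 minus CD8 difference of *Ldhb* was 1.56 on the log2(CPM + 0.5) scale in B6 (standard error 0.13, limma adjusted p = 2.39e-06) and -1.50 in FlipFlop T cells (standard error 0.13, limma adjusted p = 2.62e-06). Its lineage effect of 1.53 (standard error 0.09, limma adjusted p = 5.73e-08) corresponds to 2.89-fold. *Ldha* (ENSMUSG00000063229.15, chromosome 7 from 46841475 to 46855627) measured 788, 687 and 712 CPM in B6 CD4, 646, 611 and 531 in FlipFlop CD8, 613, 626 and 663 in B6 CD8 and 640, 601 and 541 in FlipFlop CD4 T cells. The B6 CD4 libraries were above the other 9, and helper and cytotoxic libraries overlapped. The lineage effect of *Ldha* was 0.10 (95% interval -0.04 to 0.24, limma adjusted p = 0.25). Without the TMM factor it was 0.22 (limma adjusted p = 0.0028), and the B6 difference of *Ldha* was also called (0.27, limma adjusted p = 0.012).

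The window before the start of *Ldhb* is shown with that of *Hk2*, since these 2 genes are among the 4 members with the largest lineage effects, move in opposite directions in B6 T cells and have a single annotated start each. The sequences are the 250 bases before the start, from RefSeq on GRCm38.p6, read on the gene's own strand. That of *Ldhb* is chr6:142507958-142508207 and that of *Hk2* is chr6:82774455-82774704, both on the minus strand. Capitals mark ACGTG or GCGTG on either strand, the core letters of the element bound by hypoxia-inducible factors, of which the first is also part of the Myc element CACGTG.
Ldhb: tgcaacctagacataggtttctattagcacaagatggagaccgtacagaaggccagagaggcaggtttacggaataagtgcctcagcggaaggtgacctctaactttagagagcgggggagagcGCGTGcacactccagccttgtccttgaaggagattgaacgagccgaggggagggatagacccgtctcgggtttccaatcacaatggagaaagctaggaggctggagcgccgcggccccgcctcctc
Hk2: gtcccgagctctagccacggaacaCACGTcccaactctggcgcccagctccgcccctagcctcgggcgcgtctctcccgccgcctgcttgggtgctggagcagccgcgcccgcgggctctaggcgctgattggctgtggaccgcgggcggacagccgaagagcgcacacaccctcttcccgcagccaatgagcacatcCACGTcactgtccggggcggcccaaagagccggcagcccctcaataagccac
The *Ldhb* window held 1 GCGTG and the *Hk2* window held 2 ACGTG, and neither held CACGTG. Of all 32851 windows of this length in the table, 38.6% held ACGTG or GCGTG and 6.02% held CACGTG, so such matches are common. Over the longer windows of 300 bases, 23 of the 56 windows of 38 member genes (41.1%) held ACGTG, against 19.6% of all windows. GCGTG was in 33 of the 56 (58.9%) against 32.4%, and CACGTG in 5 (8.93%) against 7.15%. The member windows were also richer in CpG, with a median of 20 against 7, and the part of CpG content in these shares was not tested. A match is a run of letters and does not show that a factor binds there.

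Upper glycolysis showed a like pattern in 2 low isozymes. *Aldoc* (ENSMUSG00000017390.15, chromosome 11 from 78322968 to 78327781) encodes aldolase C, an isozyme best known from brain. It measured 3.46, 3.91 and 3.43 CPM in B6 CD4 and 4.37, 3.57 and 3.63 CPM in FlipFlop CD8 T cells. In the cytotoxic groups it measured 1.54, 0.920 and 1.06 CPM in B6 CD8 and 0.525, 0.834 and 0.781 CPM in FlipFlop CD4 T cells. The helper and cytotoxic libraries did not overlap. The *Aldoc* difference was 1.31 in B6 (standard error 0.16, limma adjusted p = 7.11e-05) and -1.85 in FlipFlop T cells (standard error 0.16, limma adjusted p = 2.98e-06), and the lineage effect was 1.58, or 2.99-fold. *Aldoa* (ENSMUSG00000030695.16, chromosome 7 from 126795234 to 126800751), the main aldolase of most tissues, measured 557, 514 and 539 CPM in B6 CD4, 474, 426 and 418 in FlipFlop CD8, 504, 534 and 577 in B6 CD8 and 505, 446 and 452 in FlipFlop CD4 T cells. The lineage effect of *Aldoa* was -0.05 (limma adjusted p = 0.56).

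Phosphofructokinase commits glucose to glycolysis and has 3 genes, which moved in different directions. *Pfkm*, the muscle form (ENSMUSG00000033065.14, chromosome 15 from 98092589 to 98132451), measured 16.9, 13.2 and 13.1 CPM in B6 CD4 and 13.6, 13.2 and 13.2 CPM in FlipFlop CD8 T cells. It measured 10.7, 7.56 and 7.49 CPM in B6 CD8 and 11.5, 11.4 and 10.2 CPM in FlipFlop CD4 T cells, so that helper libraries were all above cytotoxic libraries. Its difference was 0.72 in B6 (limma adjusted p = 0.0018) and -0.26 in FlipFlop T cells (limma adjusted p = 0.18, and 0.0271 with the replicate numbers as a block, and 0.028 without the TMM factor). Helper minus cytotoxic, *Pfkm* differed by 0.49 (standard error 0.10, limma adjusted p = 0.0014). *Pfkl*, the liver form (ENSMUSG00000020277.10, chromosome 10 from 77986947 to 78010083), measured 72.0, 64.0 and 61.6 CPM in B6 CD4, 64.5, 60.5 and 59.9 in FlipFlop CD8, 57.9, 57.9 and 58.1 in B6 CD8 and 54.3, 57.5 and 50.4 in FlipFlop CD4 T cells, with no overlap between lineages. The lineages differed by 0.18 (standard error 0.05, limma adjusted p = 0.013). *Pfkp*, the platelet form (ENSMUSG00000021196.14, chromosome 13 from 6579768 to 6648777), measured 114, 114 and 119 CPM in B6 CD4, 130, 99.0 and 104 in FlipFlop CD8, 137, 135 and 139 in B6 CD8 and 133, 133 and 128 in FlipFlop CD4 T cells. It was lower in helper cells, at -0.25 (standard error 0.06, limma adjusted p = 0.0058), with overlap through FlipFlop CD8 replicate 1, and this call was lost without the TMM factor.

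Lower glycolysis had 1 gene called higher and 1 called lower in helper cells in the deposited scaling. *Pkm* (ENSMUSG00000032294.17, chromosome 9 from 59656368 to 59679375) encodes the M1 and M2 forms of pyruvate kinase, which forms pyruvate, and the table does not separate the 2 forms. It measured 993, 878 and 884 CPM in B6 CD4, 754, 738 and 749 in FlipFlop CD8, 636, 611 and 652 in B6 CD8 and 588, 555 and 614 in FlipFlop CD4 T cells. The order of the groups had no overlap except between B6 CD8 and FlipFlop CD4 libraries. Its difference was 0.53 in B6 (standard error 0.07, limma adjusted p = 0.00011) and -0.35 in FlipFlop T cells (standard error 0.07, limma adjusted p = 0.0023), and its lineage effect was 0.44, or 1.36-fold. *Pgam1*, a phosphoglycerate mutase, had a lineage effect of -0.19 (limma adjusted p = 0.015, lost without the TMM factor). Its difference was called in B6 (-0.30) but not in FlipFlop T cells (0.08). *Gapdh*, *Pgk1* and *Eno1* were not called for the lineage, with lineage effects of 0.12, 0.02 and 0.04. All 3 were called higher in helper cells without the TMM factor, by 0.24 (limma adjusted p = 0.0023), 0.14 (limma adjusted p = 0.0295) and 0.16 (limma adjusted p = 0.021). *Tpi1*, triosephosphate isomerase, was lower in CD4 than in CD8 T cells of FlipFlop mice, with a difference of -0.34 (limma adjusted p = 0.017), with 69.0, 63.2 and 57.3 against 82.5, 86.4 and 72.0 CPM. That call was lost without FlipFlop CD4 replicate 3, FlipFlop CD8 replicate 1 or FlipFlop CD8 replicate 2, and its B6 difference was -0.07 (limma adjusted p = 0.65). Its lineage effect of 0.14 (limma adjusted p = 0.14) was called without the TMM factor (0.26, limma adjusted p = 0.0039).

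Around the TCA cycle, the genes of the cytosolic isocitrate dehydrogenase and the cytosolic aconitase were higher in helper cells. *Idh1* (ENSMUSG00000025950.16, chromosome 1 from 65158616 to 65186500) encodes the cytosolic NADP-dependent isocitrate dehydrogenase. It measured 7.78, 6.49 and 6.99 CPM in B6 CD4, 7.07, 8.202 and 6.32 in FlipFlop CD8, 5.24, 4.002 and 5.30 in B6 CD8 and 4.04, 4.93 and 4.65 in FlipFlop CD4 T cells, with no overlap between lineages. Its difference was 0.51 in B6 (limma adjusted p = 0.014, lost without B6 CD8 replicate 2) and -0.61 in FlipFlop T cells (limma adjusted p = 0.0044), and its lineage effect was 0.56 (standard error 0.10). *Aco1* (ENSMUSG00000028405.9, chromosome 4 from 40143081 to 40198338) encodes cytosolic aconitase, which without its iron-sulfur cluster binds iron-responsive RNA elements. It measured 41.5, 41.5 and 39.5 CPM in B6 CD4, 39.3, 39.5 and 38.1 in FlipFlop CD8, 31.5, 29.8 and 31.6 in B6 CD8 and 32.3, 36.6 and 33.7 in FlipFlop CD4 T cells. The lineages did not overlap, and the *Aco1* lineage effect was 0.29 (standard error 0.05, limma adjusted p = 0.00028). Its FlipFlop difference of -0.19 (limma adjusted p = 0.046) was lost with the replicate numbers as a block (adjusted p = 0.0518) and without any of 10 single libraries, all except B6 CD4 replicate 1 and FlipFlop CD4 replicate 2.

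The pyruvate dehydrogenase complex and the mitochondrial enzymes moved less. *Pdha1* (ENSMUSG00000031299.10, chromosome X from 160122209 to 160138413), the catalytic alpha subunit of the pyruvate dehydrogenase complex, measured 193, 200 and 202 CPM in B6 CD4, 193, 192 and 185 in FlipFlop CD8, 167, 175 and 170 in B6 CD8 and 180, 175 and 174 in FlipFlop CD4 T cells. Helper libraries were all above cytotoxic libraries, by 0.16 on the log2 scale (standard error 0.04, limma adjusted p = 0.0043). Lower in helper cells were *Idh3a* (-0.24) and *Idh3b* (-0.16) of the mitochondrial isocitrate dehydrogenase, *Suclg2* (-0.22) of succinyl-CoA ligase, *Dlst* (-0.17) of the oxoglutarate dehydrogenase complex and *Dlat* (-0.13) of the pyruvate dehydrogenase complex. *Tkt*, the transketolase of the non-oxidative pentose phosphate pathway, was lower, at -0.21. All 6 of these calls were lost without the TMM factor. The call of *Dlat* was also lost without B6 CD4 replicate 3, B6 CD8 replicate 1 or 3, FlipFlop CD4 replicate 1 or 3 or FlipFlop CD8 replicate 1 or 2. That of *Idh3b* was kept without B6 CD4 replicate 1, FlipFlop CD4 replicate 2 or FlipFlop CD8 replicate 1, and lost without any other single library. In B6 T cells *Idh3a* measured 54.2, 53.4 and 56.4 CPM in CD4 against 67.6, 68.8 and 71.6 CPM in CD8 T cells. The call of this difference of -0.34 (limma adjusted p = 0.0028) was kept without the factor. In FlipFlop T cells the *Idh3a* difference was 0.14 and was not called, and CD4 and CD8 libraries overlapped. None of the 3 genes of fumarase and malate dehydrogenase (*Fh1*, *Mdh1* and *Mdh2*) and none of the 2 of the oxidative pentose phosphate pathway (*G6pdx* and *Pgd*) was called for the lineage or for CD4 against CD8 in either strain in the deposited scaling. Without the TMM factor the lineage effect was called higher for *Fh1* (0.22, limma adjusted p = 0.0039), *Mdh2* (0.18, limma adjusted p = 0.017), *Pgd* (0.16, limma adjusted p = 0.0093) and *Taldo1* (0.16, limma adjusted p = 0.032). *Fh1* was then also called in FlipFlop T cells, and *Mdh2*, *Pgd* and *Taldo1* in B6 T cells. *G6pdx* (ENSMUSG00000031400.10, chromosome X from 74409483 to 74429194), the enzyme that opens that pathway, measured 58.6, 59.4 and 55.7 CPM in B6 CD4, 57.9, 54.7 and 49.5 in FlipFlop CD8, 62.8, 61.8 and 64.9 in B6 CD8 and 60.6, 59.6 and 53.8 in FlipFlop CD4 T cells.

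**Figure D3:**
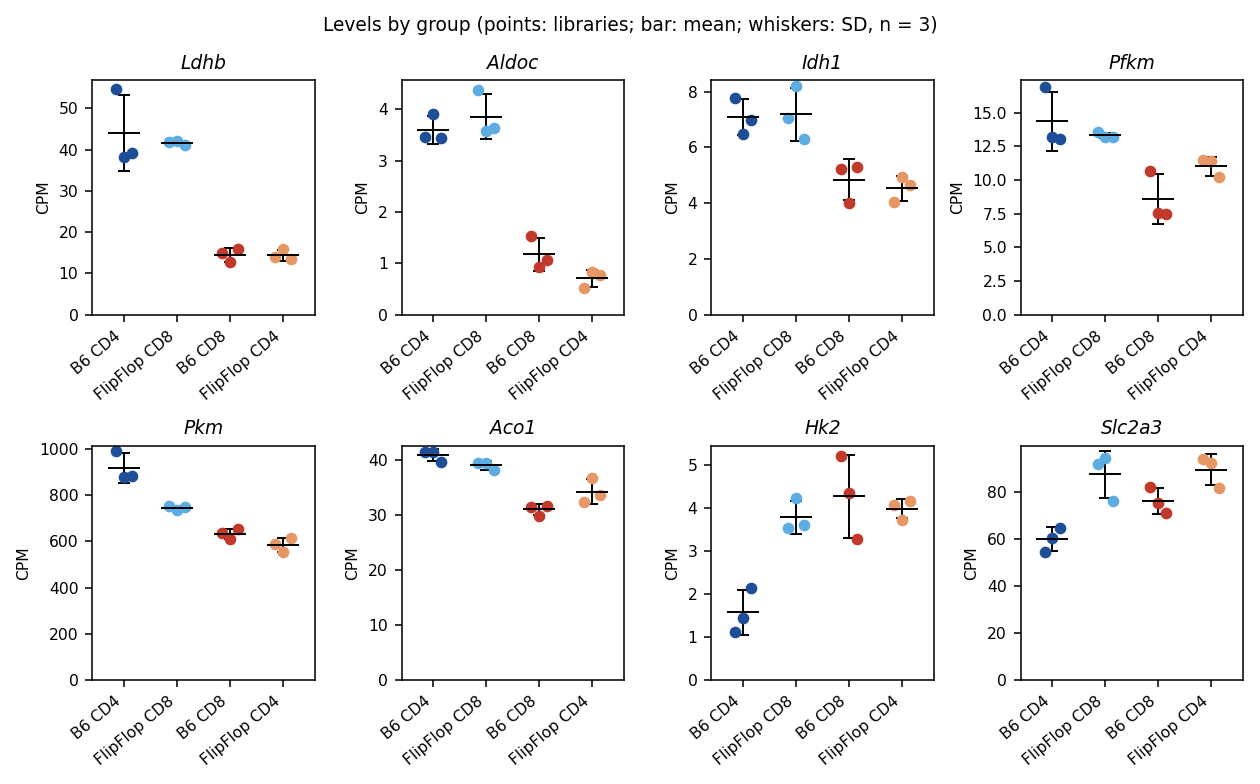
CPM of 8 genes in each library, with the mean and SD of the 3 libraries of each group. The first 6 genes are higher in both helper groups (B6 CD4 and FlipFlop CD8) than in both cytotoxic groups, and *Hk2* and *Slc2a3* are lowest in B6 CD4 T cells.

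Marker genes of other cell states moved with the lineage effect, which was called higher for 8 of 8 tested T reg genes, 7 of 10 genes of dividing cells, 6 of 11 memory or effector genes (1 lower) and 3 of 6 myeloid genes. It was called lower for 3 of 8 naive genes and 2 of 5 NK cell genes (1 higher). Of 8 T cell genes 3 were called higher and 1 lower, and of 7 B cell genes 2 higher and 1 lower. The shares of all tested genes were 19.9% higher and 19.4% lower. The part of these markers in the results for the 40 genes was not tested.

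*Hk2* and *Slc2a3* had their lowest levels in B6 CD4 T cells. In all, the 3 B6 CD4 libraries did not overlap the other 9 for 7 of the 40 genes, lower for *Hk2* and *Slc2a3* and higher for *Pkm*, *Ldha*, *Aco1*, *Pgd* and *Taldo1*, against 7.73% of all tested genes. The summed memory or effector markers were also lowest in B6 CD4 T cells, and 9 of 11 were called lower for the coreceptor effect, CD4 minus CD8 over both strains. Their part in the results for *Hk2* and *Slc2a3* was not tested. Hexokinase 2 is the inducible hexokinase of activated cells, and *Slc2a3* encodes the glucose transporter GLUT3. *Hk2* (ENSMUSG00000000628.10, chromosome 6 from 82725025 to 82774454) measured 1.13, 1.45 and 2.14 CPM in B6 CD4, 3.54, 4.23 and 3.601 in FlipFlop CD8, 5.21, 4.36 and 3.28 in B6 CD8 and 4.07, 3.73 and 4.16 in FlipFlop CD4 T cells. The 3 B6 CD4 libraries were below the other 9, which overlapped each other. The CD4 minus CD8 difference of *Hk2* was -1.21 in B6 (standard error 0.19, limma adjusted p = 0.00036) and 0.07 in FlipFlop T cells (standard error 0.19, limma adjusted p = 0.82). Its lineage effect was -0.64 (limma adjusted p = 0.0019), its strain effect, FlipFlop minus B6, was 0.50 (limma adjusted p = 0.015) and its coreceptor effect was -0.57 (limma adjusted p = 0.026). It was the 1 gene of 40 with a called coreceptor effect, against 5.49% of all tested genes (3.78% lower), and 8 of the 40 had an unadjusted p under 0.05. That call was lost with the replicate numbers as a block (adjusted p = 0.0595), which called 3 other genes, *Idh2* (adjusted p = 0.024), *Pfkm* (adjusted p = 0.0384) and *Tpi1* (adjusted p = 0.0452). It was also lost without B6 CD4 replicate 2, B6 CD8 replicate 1 or 2, FlipFlop CD4 replicate 2 or FlipFlop CD8 replicate 2.

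*Hk1* (ENSMUSG00000037012.18, chromosome 10 from 62268855 to 62379908), the constitutive hexokinase bound to mitochondria, measured 176, 188 and 188 CPM in B6 CD4, 196, 188 and 179 in FlipFlop CD8, 202, 184 and 196 in B6 CD8 and 207, 212 and 206 in FlipFlop CD4 T cells and was not called in any comparison in the deposited scaling. *Slc2a3* (ENSMUSG00000003153.10, chromosome 6 from 122727809 to 122801640) measured 54.4, 60.1 and 64.6 CPM in B6 CD4, 91.7, 94.4 and 75.8 in FlipFlop CD8, 81.9, 75.2 and 70.9 in B6 CD8 and 93.8, 92.2 and 81.7 in FlipFlop CD4 T cells. The B6 CD4 libraries were again below the other 9. Its B6 difference was -0.35 (limma adjusted p = 0.022), lost without B6 CD4 replicate 1 or 2, B6 CD8 replicate 1 or 2 or the TMM factor. The FlipFlop difference of *Slc2a3* was 0.04 (limma adjusted p = 0.83). Its lineage effect of -0.19 (limma adjusted p = 0.048) was lost without any of 8 single libraries (replicates 1 and 2 of B6 CD4, B6 CD8 and FlipFlop CD4, and replicates 1 and 3 of FlipFlop CD8) and without the TMM factor. *Slc2a1* (ENSMUSG00000028645.11, chromosome 4 from 119108711 to 119137983), which encodes the main glucose transporter of activated T cells, GLUT1, measured 51.1, 49.2 and 51.4 CPM in B6 CD4, 49.3, 46.3 and 41.7 in FlipFlop CD8, 56.2, 52.3 and 54.8 in B6 CD8 and 51.6, 49.1 and 44.5 in FlipFlop CD4 T cells. Its lineage effect was -0.09 (limma adjusted p = 0.21).

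Shares of isozymes within a library are not moved by the scaling factor. They were computed from CPM per length of the union of a gene's exons and are given as mean ± SD (n = 3). *Ldhb* made up 11.2% ± 1.35 of *Ldha* and *Ldhb* together in B6 CD4, 12.9% ± 1.05 in FlipFlop CD8, 4.60% ± 0.443 in B6 CD8 and 4.89% ± 0.459 in FlipFlop CD4 T cells. *Ldha* thus made up most of the pair in every group. *Aldoc* made up 0.596% ± 0.0671 of *Aldoa* and *Aldoc* in B6 CD4, 0.776% ± 0.0373 in FlipFlop CD8, 0.196% ± 0.06515 in B6 CD8 and 0.138% ± 0.0395 in FlipFlop CD4 T cells. *Pfkm* made up 18.8% ± 1.71, 18.6% ± 1.12, 11.9% ± 2.23 and 15.6% ± 0.388 of the 3 phosphofructokinase genes in the same order of groups. *Pfkp* made up 37.9% ± 2.75, 38.4% ± 2.74, 47.7% ± 1.21 and 46.3% ± 1.13 in that order, so that its share was lower in both helper groups, as its level was. The *Idh1* share of *Idh1* and *Idh2* was 9.35% ± 0.112, 13.4% ± 1.70, 7.37% ± 0.642 and 7.50% ± 1.197, highest in FlipFlop CD8 T cells, where *Idh2* was lowest. The *Suclg2* share of *Sucla2* and *Suclg2*, the ADP-forming and GDP-forming subunits of succinyl-CoA ligase, was 50.1% ± 1.19, 50.3% ± 1.79, 54.8% ± 1.315 and 52.7% ± 0.477. *Hk2* stayed a minor part of *Hk1* and *Hk2*, at 1.2% ± 0.360, 2.80% ± 0.303, 3.06% ± 0.6435 and 2.67% ± 0.188. *Slc2a3* made up 36.3% ± 2.03 and 40.3% ± 1.56 of both transporters in B6 CD4 and B6 CD8, and 47.15% ± 0.431 and 47.95% ± 1.52 in FlipFlop CD4 and FlipFlop CD8 T cells. With the length of the longest transcript in place of the exon union, the shares were lower by more than 1.5-fold for *Aldoc* (0.372%, 0.485%, 0.122% and 0.0858% in the same order of groups) and *Hk2* (0.655%, 1.54%, 1.68% and 1.47%). They were also lower, by less, for *Ldhb* (7.70%, 8.91%, 3.08% and 3.28%) and *Pfkm* (13.8%, 13.7%, 8.67% and 11.4%). Both shares stayed higher in both helper groups than in both cytotoxic groups.

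**Figure D4:**
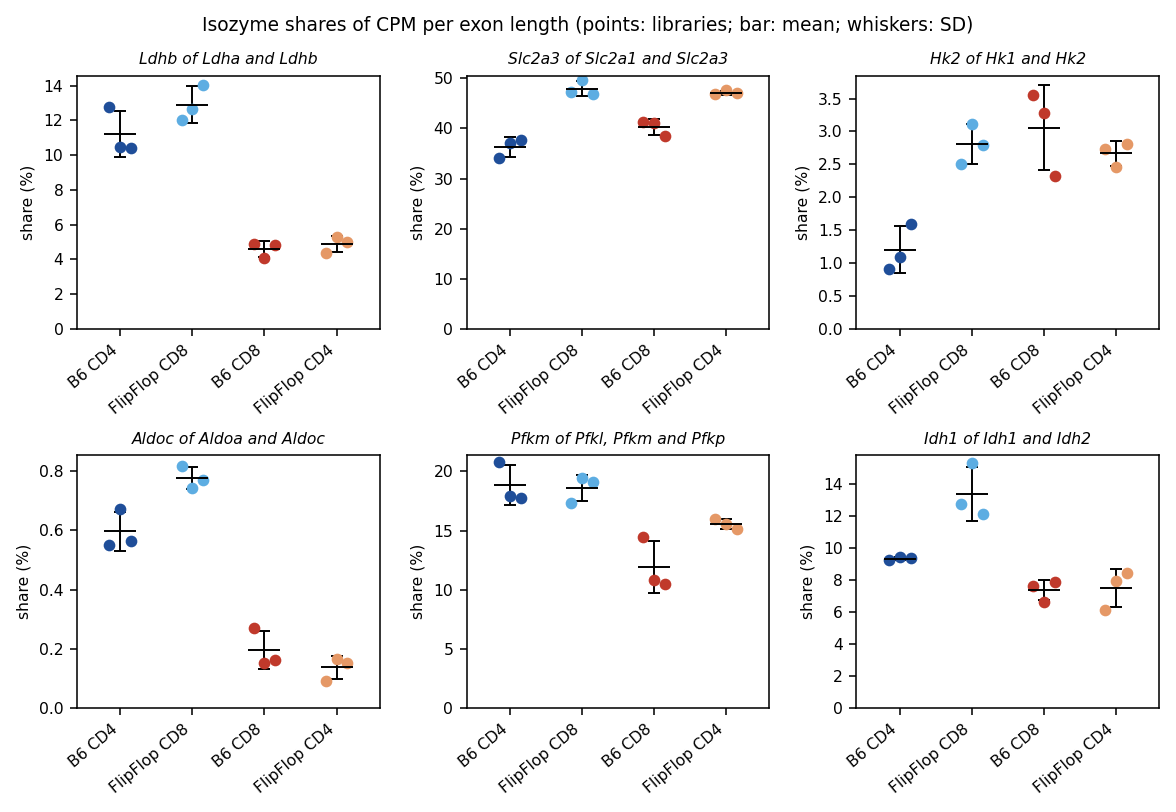
Share of 1 isozyme among the isozymes of a step, in percent of CPM per exon length, in each library, with the mean and SD of each group. The *Ldhb* and *Aldoc* shares of both helper groups lie above those of both cytotoxic groups, and the *Slc2a3* share is higher in both FlipFlop groups than in both B6 groups.

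The next question was how FlipFlop T cells differ from B6 T cells over both lineages. Averaged over the lineages, *Pgd*, *Idh2*, *Taldo1* and *Aldoa* were lower in FlipFlop T cells and *Hk2* and *Slc2a3* were higher. These 6 kept their calls under both scalings. Within the cytotoxic lineage *Hk2* was not higher, with a mean of 3.99 CPM for FlipFlop CD4 against 4.28 CPM for B6 CD8. Cytotoxic libraries overlapped between strains for *Hk2*, *Slc2a3*, *Idh2* and *Aldoa*, but not for *Pgd* and *Taldo1*. The strain effect was called for 15 of 40 genes, 2 higher and 13 lower in FlipFlop T cells, against 31.2% of all tested genes (15.8% higher and 15.4% lower). The median strain effect of the 40 genes was -0.111, against -0.005 over all tested genes. Without the TMM factor the medians were 0.001 and 0.103 and 8 genes were called, 4 higher and 4 lower, against 27.9% higher and 6.51% lower of all genes tested in that scaling. The 2 called higher only without the factor were *Hk1* (0.18) and *Aco1* (0.15).

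*Pgd* (ENSMUSG00000028961.15, chromosome 4 from 149149991 to 149166771) encodes phosphogluconate dehydrogenase, an NADPH-yielding enzyme of the oxidative pentose phosphate pathway. It measured 103, 94.9 and 93.9 CPM in B6 CD4, 75.4, 73.7 and 70.7 in FlipFlop CD8, 87.1, 87.4 and 93.8 in B6 CD8 and 78.5, 70.6 and 77.3 in FlipFlop CD4 T cells. All 6 FlipFlop libraries were below all 6 B6 libraries, and the strain effect of *Pgd* was -0.33 (standard error 0.05, limma adjusted p = 0.00054). *Taldo1*, transaldolase of the non-oxidative branch (ENSMUSG00000025503.5, chromosome 7 from 141392199 to 141402968), measured 234, 191 and 189 CPM in B6 CD4, 172, 149 and 138 in FlipFlop CD8, 177, 176 and 185 in B6 CD8 and 175, 163 and 153 in FlipFlop CD4 T cells. It also did not overlap between strains, with a strain effect of -0.28 (standard error 0.07, limma adjusted p = 0.012).

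*Idh2* (ENSMUSG00000030541.16, chromosome 7 from 80094846 to 80115392), the mitochondrial NADP-dependent isocitrate dehydrogenase, measured 71.4, 58.0 and 63.2 CPM in B6 CD4, 45.3, 42.3 and 42.7 in FlipFlop CD8, 59.5, 52.5 and 58.0 in B6 CD8 and 57.6, 53.5 and 47.2 in FlipFlop CD4 T cells. FlipFlop CD8 libraries were the 3 lowest, and FlipFlop CD4 overlapped B6 CD8 libraries. Its strain effect was -0.33 (standard error 0.07, limma adjusted p = 0.0038). *Suclg1*, the subunit shared by both succinyl-CoA ligases (ENSMUSG00000052738.14, chromosome 6 from 73248382 to 73276911), measured 106, 92.8 and 90.8 CPM in B6 CD4, 79.4, 70.7 and 69.3 in FlipFlop CD8, 81.3, 92.4 and 93.3 in B6 CD8 and 92.1, 80.9 and 73.8 in FlipFlop CD4 T cells. Its strain effect of -0.26 (standard error 0.07, limma adjusted p = 0.016) was lost without the TMM factor.

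Of the other glycolytic genes, *Aldoa* and *Eno1* had strain effects of -0.25 each, *Pkm* -0.20, *Ldha* -0.20, *Pgk1* -0.19, *Pgam1* -0.16 and *Slc2a1* -0.16, and of these *Aldoa* alone kept its call without the TMM factor. *Idh3g* (-0.22) and *Pdhb* (-0.16) also lost theirs. *Pgk1* and *Eno1* did not overlap between strains, which with *Pgd* and *Taldo1* makes 4 of 40 genes, all lower in FlipFlop T cells. Over all tested genes this held for 5.85% (308 genes higher and 370 lower). The calls of *Ldha*, *Pgk1*, *Pgam1*, *Pdhb* and *Slc2a1* were also lost when single libraries were left out, each without B6 CD4 replicate 1, B6 CD8 replicate 2 or 3, FlipFlop CD4 replicate 2 or 3 or FlipFlop CD8 replicate 3. Those of *Ldha*, *Pgam1*, *Pdhb* and *Slc2a1* were lost without further libraries too. The strain effect was called lower for all 4 tested red blood cell genes, for 4 of 7 B cell genes, for 4 of 8 naive genes and for 4 of 8 T cell genes. It was called higher for 7 of 10 genes of dividing cells (1 lower), 6 of 8 T reg genes and 6 of 11 memory or effector genes. The shares of all tested genes were 15.8% higher and 15.4% lower. The part of these markers in the strain effect of the 40 genes was not tested.

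**Figure D5:**
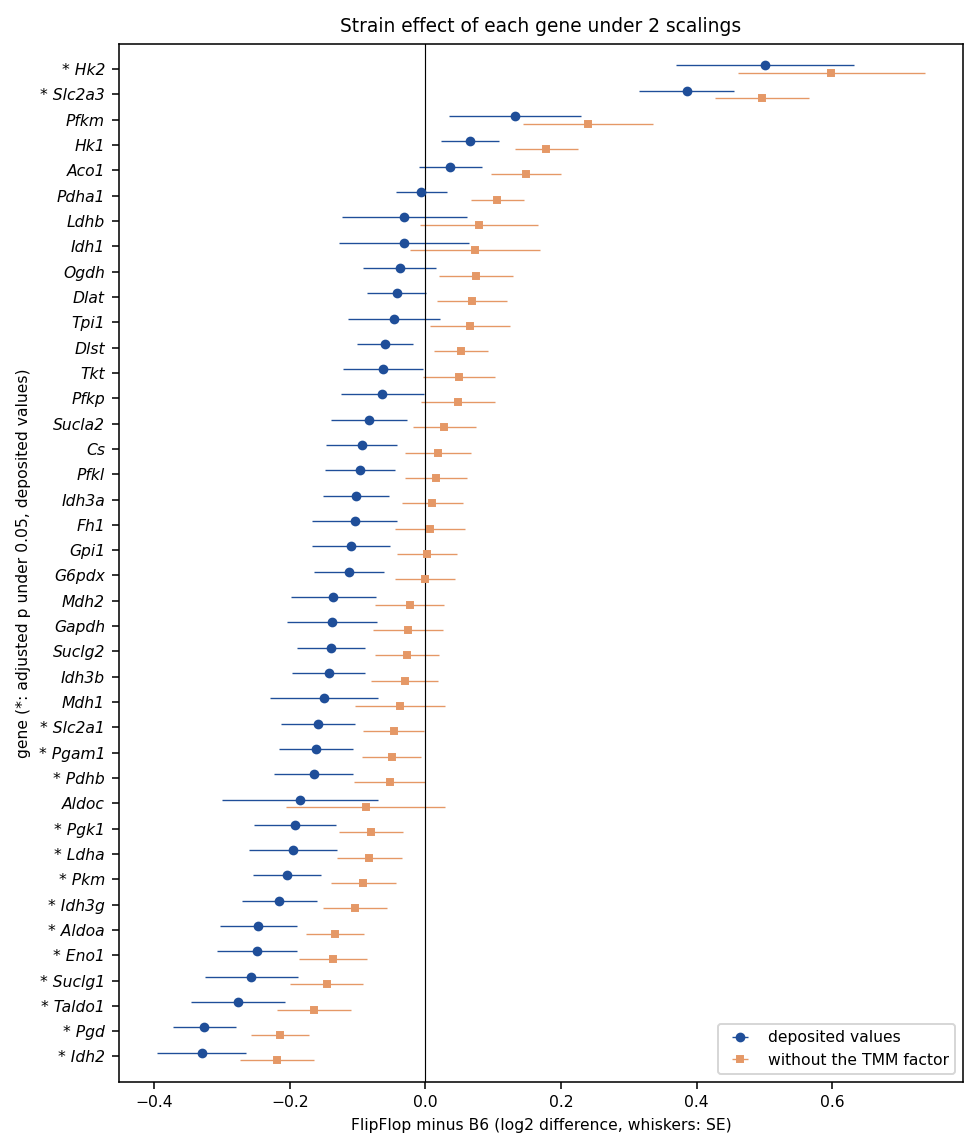
Strain effect (FlipFlop minus B6, log2 difference with whiskers of 1 standard error) of each of the 40 genes, from the deposited values (circles) and without the TMM factor (squares). Stars mark the 15 genes called in the deposited values. Every gene lies further to the right without the factor, with *Hk2* (0.60) and *Slc2a3* (0.50) highest and *Pgd* (-0.21) and *Idh2* (-0.22) lowest.

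Within lineages, FlipFlop CD8 T cells differed from B6 CD4 T cells in 11 of 40 genes, 2 higher and 9 lower, against 27.6% of all tested genes. Without the TMM factor 9 were called, 4 higher and 5 lower, against 24.7% higher and 4.75% lower of all genes tested in that scaling. *Hk2* (1.07, limma adjusted p = 0.0019) and *Slc2a3* (0.54, limma adjusted p = 0.0027) were higher. *Idh2* (-0.55), *Taldo1* (-0.42), *Pgd* (-0.41), *Suclg1* (-0.40), *Eno1* (-0.38), *Pkm* (-0.30), *Ldha* (-0.29), *Aldoa* (-0.29) and *Pdhb* (-0.26) were lower. The calls of *Pkm*, *Ldha*, *Aldoa* and *Pdhb* were lost without the TMM factor. The count was 7 without FlipFlop CD8 replicate 2 and 6 without FlipFlop CD8 replicate 3. Leaving out either of these libraries ended the calls of *Suclg1*, *Aldoa*, *Ldha* and *Pdhb*, and leaving out the latter also that of *Taldo1*. The calls of *Ldha* and *Pdhb* were lost without B6 CD4 replicate 1 too, that of *Ldha* without B6 CD8 replicate 2 and that of *Pdhb* without B6 CD4 replicate 2. In the same comparison 10 of 11 memory or effector genes, 8 of 10 genes of dividing cells and 7 of 8 T reg genes were called higher. Called lower were 4 of 8 naive, 4 of 8 T cell, 3 of 7 B cell and 3 of 4 red blood cell genes. The shares of all tested genes were 13.2% higher and 14.4% lower. The part of these markers was not tested. Of the genes with the largest lineage effects, *Ldhb* differed between these groups by -0.06 (95% interval -0.34 to 0.22), *Aldoc* by 0.09 (-0.27 to 0.44), *Idh1* by 0.02 (-0.28 to 0.31), *Pfkm* by -0.10 (-0.39 to 0.20), *Aco1* by -0.07 (-0.21 to 0.08) and *Pfkp* by -0.07 (-0.26 to 0.12), beside the called *Pkm* and *Hk2*. FlipFlop CD4 T cells differed from B6 CD8 T cells in 1 of 40 genes, *Pgd* (-0.24, limma adjusted p = 0.043), against 7.92% of all tested genes (4.17% higher and 3.75% lower), and 11 had an unadjusted p under 0.05. The libraries of these groups did not overlap for 19 of 40 genes (47.5%), 2 higher and 17 lower in FlipFlop CD4 T cells. Over all tested genes this held for 32.4% (1932 genes higher and 1822 lower). Overlap was counted in the deposited scaling only. The *Pgd* call was lost without the TMM factor, without the eBayes trend and in a fit of only the libraries compared. It was also lost without any single library other than B6 CD4 replicates 1 and 3. Whether the strain difference differed between lineages is tested by the coreceptor effect, which was called for *Hk2* and, with the replicate numbers as a block, for *Idh2*, *Pfkm* and *Tpi1* instead. It was called for *Hk2* and for *Tpi1* (-0.26, limma adjusted p = 0.021) without the TMM factor. For *Idh2* and *Slc2a3* it was 0.22 (limma adjusted p = 0.073, and 0.024 with the block) and -0.16 (limma adjusted p = 0.26).

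Chromosome 6 carries both altered loci, *Cd4* (124864692 to 124888221) and *Cd8a* (71373427 to 71379173), and 7 of the 40 genes. *Tpi1* lies 0.0504 Mb and *Gapdh* 0.2735 Mb from *Cd4*, *Slc2a3* 2.06 Mb and *Ldhb* 17.6 Mb. *Suclg1* lies 1.87 Mb, *Hk2* 11.35 Mb and *Suclg2* 24.1 Mb from *Cd8a*. Both genes with a called higher strain effect, *Hk2* and *Slc2a3*, and the lower *Suclg1* are among the 7, whereas *Ldhb* (-0.03), *Gapdh* (-0.14), *Tpi1* (-0.05) and *Suclg2* (-0.14) were not called. Over all 571 tested genes of chromosome 6 the strain effect was called higher for 16.8% and lower for 16.1%, and over the 11024 tested genes of other chromosomes for 15.7% and 15.4%. The part of strain 129 alleles linked to these loci was not tested.

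Other genes of the same pathways were taken from fixed lists. Of 22 tested genes that surround glycolysis, 9 had a called higher and 3 a called lower lineage effect, with a median of 0.16, against -0.025 over all tested genes, of which 19.9% were called higher and 19.4% lower. The 2 largest rises were *Slc16a3* and *Ldhd*. *Slc16a3* encodes the lactate exporter MCT4 and measured 4.32, 5.23 and 5.24 CPM in B6 CD4, 7.20, 6.71 and 5.34 in FlipFlop CD8, 1.65, 1.24 and 1.82 in B6 CD8 and 1.05, 0.979 and 0.892 in FlipFlop CD4 T cells. Its lineage effect was 1.81 (standard error 0.10, limma adjusted p = 4.11e-08). *Ldhd*, a mitochondrial D-lactate dehydrogenase, had a lineage effect of 1.19, with means of 5.47 (B6 CD4) and 2.60 CPM (FlipFlop CD8) in helper and of 1.60 (B6 CD8) and 1.18 CPM (FlipFlop CD4) in cytotoxic cells. In the other direction, *Slc16a1*, which encodes the monocarboxylate transporter MCT1, measured 37.2, 39.9 and 44.7 CPM in B6 CD4 and 35.2, 39.8 and 33.6 CPM in FlipFlop CD8 T cells. It measured 74.4, 92.7 and 85.5 CPM in B6 CD8 and 64.8, 58.3 and 52.6 CPM in FlipFlop CD4 T cells, and its lineage effect was -0.86 (limma adjusted p = 1.7e-06). *Gpd2*, mitochondrial glycerol phosphate dehydrogenase, was lower, at -0.28 (limma adjusted p = 0.037), a call lost without the TMM factor and without any of 7 single libraries (replicates 1 and 2 of B6 CD8 and of FlipFlop CD8, and all 3 of FlipFlop CD4). *G6pc3* (-0.25), the remaining gene called lower, also lost its call without the TMM factor.

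Of 9 other pentose phosphate genes, 2 were called higher and 3 lower in helper cells, against 39.3% of all tested genes in either direction. *Tktl1*, a transketolase-like gene, measured 0.451, 0.581 and 0.613 CPM in B6 CD4 and 1.77, 2.84 and 1.63 CPM in FlipFlop CD8 T cells. It was listed at 0 in the 3 B6 CD8 libraries and at 0.0362 to 0.0985 CPM, at most 3 reads, in FlipFlop CD4 T cells. *Tktl1* reached 1 CPM in the FlipFlop CD8 libraries only, so it passed the filter through a group where it is high. Its call as higher in helper cells therefore carries no weight. *Dera*, deoxyribose phosphate aldolase, was higher by 0.21. *Prps1* (-0.27) and *Prps2* (-0.30), which make the ribose donor of nucleotide synthesis, were lower, and *Prps2* lost its call without the TMM factor. Of 24 tested genes around pyruvate and the TCA cycle, 4 were called higher and 3 lower, against 39.3% of all tested genes. *Pck2*, mitochondrial phosphoenolpyruvate carboxykinase, measured 27.5, 21.4 and 21.8 CPM in B6 CD4, 20.7, 27.4 and 28.5 in FlipFlop CD8, 11.3, 9.68 and 9.51 in B6 CD8 and 8.54, 12.1 and 12.3 in FlipFlop CD4 T cells, a lineage effect of 1.18 (limma adjusted p = 4.03e-06). *Slc25a1*, the mitochondrial citrate carrier, was higher by 0.33. *Pdk3* (-0.22), a kinase of the pyruvate dehydrogenase complex, and *Sdhd* (-0.16), a subunit of succinate dehydrogenase, were lower and lost their calls without the TMM factor, and *Sdhd* also without any of 7 single libraries (B6 CD4 2 and 3, B6 CD8 2 and 3, FlipFlop CD4 1, FlipFlop CD8 2 and 3).

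Of 29 tested regulators of glucose metabolism, 6 were called higher and 5 lower in helper cells, a share near the 39.3% of all tested genes. This split depended on the scaling. The 6 called higher kept their calls without the TMM factor, whereas calls lost without it include *Mlxip* (-0.34), called lower. *Epas1* encodes the oxygen-regulated factor HIF-2α and measured 14.6, 23.5 and 22.8 CPM in B6 CD4, 17.4, 22.1 and 21.6 in FlipFlop CD8, 2.66, 2.48 and 2.45 in B6 CD8 and 2.66, 6.09 and 4.35 in FlipFlop CD4 T cells. Its lineage effect was 2.45 (standard error 0.17, limma adjusted p = 1.81e-07). *Hif1a*, the HIF-1α gene, measured 105, 159 and 176 CPM in B6 CD4, 210, 208 and 216 in FlipFlop CD8, 105, 112 and 125 in B6 CD8 and 128, 119 and 132 in FlipFlop CD4 T cells, a lineage effect of 0.54 (limma adjusted p = 0.0013) with overlap between lineages. *Irf4*, a factor induced by T cell receptor signals, was higher by 1.57. *Pik3cd* (-0.58), the catalytic subunit of PI3K delta, and *Myc* (-0.49), which drives glycolytic genes in activated T cells, were lower in helper cells under both scalings. *Myc* measured 105, 112 and 99.0 CPM in B6 CD4, 103, 101 and 98.9 in FlipFlop CD8, 149, 153 and 138 in B6 CD8 and 150, 154 and 127 in FlipFlop CD4 T cells. *Txnip*, an inhibitor of glucose uptake, had a lineage effect of -0.20 (limma adjusted p = 0.097), with means of 747 ± 11.4, 894 ± 121, 828 ± 31.2 and 1063 ± 189.8 CPM (SD, n = 3) in B6 CD4, FlipFlop CD8, B6 CD8 and FlipFlop CD4 T cells.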

How the data were processed

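RNA from T cells sorted from LN was amplified as cDNA with a SMARTer kit for low input and sequenced as paired-end reads. Per the study's methods the reads were aligned to mm10 with STAR, whereas the submitters' processing notes name Trimmomatic and TopHat with mm10. The counter and annotation are not given in the sources used here. The authors deposited 1 table of expression signal, CPM scaled by TMM, with 1 column per library. Values under 100 CPM were whole reads in 84.8% to 86.4% of cases (tolerance 0.001 read), so the table was not turned back into counts and depth sets the precision of low genes only. No 2 of the 66 pairs of libraries were identical.

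The 11595 genes that reached 1 CPM in 3 or more libraries were fitted as log2(CPM + 0.5) with limma 3.58.1 (R 4.3.3, eBayes with trend, 8 residual degrees of freedom), with 1 mean per group. A log2 difference on this scale understates the change of low genes. Genes were called at a Benjamini-Hochberg adjusted p under 0.05 over all tested genes. The code of the fit was checked on simulated data, which says nothing about the calls made here. Positions, gene types and exon lengths are from GENCODE M21 (GRCm38), in which all 12809 identifiers matched. Figures were drawn with matplotlib 3.10.9.

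The genes and lists were chosen with earlier results of these data known. Values in every library are given for the 8 genes with the largest called lineage effect, the 6 with the largest called strain effect, up to 3 with a called coreceptor effect, fixed isozyme groups with *G6pdx*, *Pgd* and *Pdha1*, and, of each other list, the 2 largest called rises and falls of the lineage effect are named, with *Hif1a*, *Myc* and *Txnip*. *Tpi1* and *Idh3a* were named after their values were seen. Replicate numbers were checked by correlating deviations from group means of same-numbered CD4 and CD8 libraries. The correlations were 0.443, 0.271 and 0.513 in FlipFlop libraries, against -0.379 to -0.037 between libraries with different numbers. In B6 libraries they were 0.184, 0.089 and 0.352, against -0.348 to 0.155. The FlipFlop numbers thus go with a shared spread, whereas so few B6 values cannot settle whether the numbers pair. Any such pairing rests on the data alone. Alternatives were other pseudocounts, filters and scalings, eBayes without trend, fits of 6 libraries, a replicate block, exon lengths from the longest transcript and each library left out in turn.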

Additional observations from a re-analysis of the deposited data

Results flagged for a closer look

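The CD4 minus CD8 difference in B6 minus that in FlipFlop T cells, which is the interaction of strain and coreceptor and equals 2 times the lineage effect, passed the limma test for 18 of the 40 genes, against 39.3% of all tested genes. It is given here on the log2 scale. It was above 0 for *Aldoc* (3.16), *Ldhb* (3.06), *Idh1* (1.12), *Pfkm* (0.98), *Pkm* (0.89), *Aco1* (0.58), *Pfkl* (0.37) and *Pdha1* (0.32). It was below 0 for *Hk2* (-1.28), *Pfkp* (-0.50), *Idh3a* (-0.48), *Suclg2* (-0.45), *Tkt* (-0.42), *Slc2a3* (-0.38), *Pgam1* (-0.38), *Dlst* (-0.35), *Idh3b* (-0.31) and *Dlat* (-0.25).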

How the results depend on the processing

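No called difference of the 40 genes changed direction under an alternative. Leaving out the TMM factor shifts all genes of a comparison alike and so turned small differences that were not called, such as the lineage effect of *Slc2a1* (0.03), the FlipFlop differences of *Hk2* (-0.09) and *Slc2a3* (-0.14) and the strain effects of *Ldhb* (0.08) and *Tpi1* (0.07). Of 1401 values recomputed for calls of single genes, 1163 kept their side of the threshold and 238 lost it. The count of genes called moved by over 1.5 times in these cases. Under the rule of a p under 0.05 with more than 5-fold it was 0 in all 7 comparisons with folds on the log2(CPM + 0.5) scale, on which *Aldoc* falls short in FlipFlop T cells though its mean CPM differed by more than 5-fold. Without the TMM factor it was 8 for the strain effect, 2 for the coreceptor effect and 0 for FlipFlop CD4 minus B6 CD8. Without the eBayes trend it was 6 for FlipFlop CD4 minus CD8 and 0 for FlipFlop CD4 minus B6 CD8. With a mean of at least 5 CPM it was 0 for the coreceptor effect, since *Hk2* is under that mean. From the 6 libraries compared it was 6 for FlipFlop CD8 minus B6 CD4. For the others the cause was not tested.

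With each library left out in turn, counts ranged from 9 to 12 for B6 CD4 minus CD8, 5 to 15 for FlipFlop CD4 minus CD8, 0 to 2 for the coreceptor effect, 15 to 20 for the lineage effect, 10 to 16 for the strain effect, 6 to 14 for FlipFlop CD8 minus B6 CD4 and 0 to 3 for FlipFlop CD4 minus B6 CD8. The coreceptor count was 2 without B6 CD4 replicate 1 or FlipFlop CD4 replicate 3. The count for FlipFlop CD4 minus B6 CD8 was 3 without B6 CD4 replicate 1.

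The replicate block gave 15 calls for B6 CD4 minus CD8 (13 without it), 13 for FlipFlop CD4 minus CD8 (11), 3 for the coreceptor effect (1) and 20 for the lineage effect (18). In FlipFlop T cells it added *Pfkm* (adjusted p = 0.0271), *Idh3b* (0.0409) and *Tkt* (0.0454). Whether the replicate numbers of B6 libraries mark pairs is not known, and there the block added *Tkt* (adjusted p = 0.0265) and *Pfkp* (0.0375). For the lineage effect it added *Gpi1* (adjusted p = 0.0309) and *Pdhb* (0.0496).

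Of 688 values recomputed for the called lineage effects of 35 other pathway genes, 633 kept their side of the threshold, 55 lost it and 0 changed direction. Low depth limits *Aldoc* and *Hk2*, whose lowest values rest on 16 and 30 reads, and also limits *Tktl1* of the other pathway genes.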
